A study of Mus musculus with 12 samples.

Results

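The genes described here encode the nuclear-encoded subunits of the mitochondrial respiratory chain and of ATP synthase. They were chosen by symbol: Nduf genes of the a, b, c, s and v series for complex I, Sdha to Sdhd for complex II, Uqcr genes for complex III, Cox4 to Cox8 genes for complex IV and Atp5 genes for complex V. The choice found 83 of the 17419 genes of the table, with 38 in complex I, 4 in complex II, 8 in complex III, 15 in complex IV and 18 in complex V. Ndufa4 is counted in complex I by its symbol, although it is now placed in complex IV. Of these, 78 had a mean of at least 100 reads over the libraries, and the values of new RNA below are for these 78.

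The cells were NIH-3T3, an established line of mouse embryonic fibroblasts, here with the genotype WT. They were given 4-thiouridine (4sU), a uridine analogue that cells build into new RNA, at 800 µM for 15, 30, 60, 90 or 120 min, or were left without it (no4sU). Each of these 6 groups had 2 libraries, called replicates A and B, which makes 12 libraries of total RNA. After extraction, iodoacetamide altered the 4sU so that sequencing shows C where the RNA had U (SLAM-seq). The authors estimated from such changes the new-to-total ratio (NTR), that is, how much of a gene's RNA was new. The labels do not say whether A and B came from separate cultures, so p-values measure the spread between these libraries, which may be technical. According to its title, the study asked how the labelling duration biases quantification.

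The respiratory chain passes electrons from NADH and succinate to oxygen through complexes I to IV and pumps protons out of the mitochondrial matrix. ATP synthase, complex V, lets the protons flow back and makes ATP. A core of subunits is encoded in mitochondrial DNA, and all the others are encoded in the nucleus, translated in the cytosol and imported. Messenger RNAs of such housekeeping proteins are known to be abundant and long-lived.

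Total reads per library lay between 9917026 and 13739380. All 7 fibroblast markers looked at were present, with Vim at 3867 to 4580 CPM (reads scaled to the size of the library), whereas 5 markers of other cell types summed to between 5.67 and 8.45 CPM. The mitochondrially encoded subunits were not analysed here, as 0 of 13 were among the rows. The no4sU libraries differed from each other with gene length. Across 9065 genes with a mean of at least 100 reads, the deviation of no4sU replicate A from each gene's mean fell with gene length (Spearman rho -0.51). The rho was 0.38 in no4sU replicate B, 0.34 and 0.22 in the 15 min libraries and -0.28 and -0.41 in the 120 min libraries. The subunit genes are short, with a median length of 1025.5 bases against 3596 for all those genes. Results that use the no4sU group are therefore given with and without each of its replicates.

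The sequences that follow show where the members of 2 paralogous families, compared below for their new RNA, can be told apart by reads. Subunit c forms the rotating ring of ATP synthase and is encoded by Atp5g1, Atp5g2 and Atp5g3, which differ in the targeting part that is cut off after import. The last 237 coding bases of each gene, the longest end that encodes the same residues in all 3 (78 codons and the stop codon), are printed with capitals at the 64 positions where the bases are not all the same. The spans on GRCm38, which include introns, are chr11:96073104-96073644 for Atp5g1, chr15:102663014-102665175 for Atp5g2 and chr2:73908593-73909305 for Atp5g3, all on the minus strand.
Atp5g1: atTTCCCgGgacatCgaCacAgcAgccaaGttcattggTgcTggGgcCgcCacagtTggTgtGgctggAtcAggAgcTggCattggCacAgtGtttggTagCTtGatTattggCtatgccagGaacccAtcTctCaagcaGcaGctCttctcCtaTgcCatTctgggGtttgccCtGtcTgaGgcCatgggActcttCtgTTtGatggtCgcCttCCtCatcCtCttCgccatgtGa
Atp5g2: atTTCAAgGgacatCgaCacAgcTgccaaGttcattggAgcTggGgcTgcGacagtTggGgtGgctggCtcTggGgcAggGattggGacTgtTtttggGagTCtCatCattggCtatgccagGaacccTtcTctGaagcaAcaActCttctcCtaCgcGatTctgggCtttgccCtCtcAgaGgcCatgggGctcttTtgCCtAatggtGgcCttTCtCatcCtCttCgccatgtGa
Atp5g3: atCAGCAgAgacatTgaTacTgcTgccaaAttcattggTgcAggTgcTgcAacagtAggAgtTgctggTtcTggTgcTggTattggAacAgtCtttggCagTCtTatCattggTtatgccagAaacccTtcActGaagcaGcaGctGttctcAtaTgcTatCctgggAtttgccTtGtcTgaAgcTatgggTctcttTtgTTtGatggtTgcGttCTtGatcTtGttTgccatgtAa
Atp5g1 and Atp5g2 differed at 36 of these positions, Atp5g1 and Atp5g3 at 51, and Atp5g2 and Atp5g3 at 54.

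Cox7a2 is a small subunit of complex IV, and Cox7a2l is the related protein that joins complex IV to complex III in supercomplexes. The best ungapped stretch shared by their coding sequences is 44 bases long, and 33 of these are identical. Capitals mark the 11 bases that differ. The stretches lie within chr9:79756351-79758522 for Cox7a2 and chr17:83502727-83504132 for Cox7a2l on GRCm38, both on the minus strand and with an intron in the span.
Cox7a2: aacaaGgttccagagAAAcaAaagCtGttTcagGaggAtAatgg
Cox7a2l: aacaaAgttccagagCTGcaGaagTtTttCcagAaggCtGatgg

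The nuclear respiratory factor NRF1 is a known activator of respiratory chain genes and binds a palindromic motif, searched here by its core CGCATGCG, which reads the same on both strands. RefSeq promoter windows (GRCm38.p6) were found for 65 of the 82 member symbols. The core lay in the 250 bases before the RefSeq start of 7 of the 65 genes (10.8%), against 1.747% of the 27025 genes with a window. By the GENCODE M21 gene spans, which can start elsewhere, 3 of these stretches (Ndufa8, Atp5g2 and Atp5j) lie inside the gene. That of Atp5k overlaps the start of its gene. All 7 stretches are printed with the core in capitals. They are at chr2:36049339-36049358 for Ndufa8, chr5:108434430-108434459 for Atp5k, chr5:115349101-115349130 for Cox6a1, chr9:44920965-44920992 for Atp5l, chr15:102671070-102671099 for Atp5g2 and chr16:84835105-84835134 for Atp5j, all on the minus strand, and at chr17:56717692-56717721 on the plus strand for Ndufa11.
Ndufa8: gtcgctggagaCGCATGCGc
Atp5k: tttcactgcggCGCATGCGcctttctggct
Cox6a1: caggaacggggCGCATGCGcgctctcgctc
Atp5l: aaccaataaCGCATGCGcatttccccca
Atp5g2: ggctccggccgCGCATGCGcagagccttcc
Atp5j: aggccagaataCGCATGCGtacagtgcagt
Ndufa11: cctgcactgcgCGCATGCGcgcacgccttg
An ETS motif, CCGGAAGT, of the kind that GABP binds, was searched on both strands. It was in 3 of the 65 windows (4.62%: Atp5h, Uqcr11 and Uqcrh), none of them among those with the NRF1 core, against 3.23% of all. These are matches of letters in a window, not measured sites.

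Messenger RNAs of the subunits contained little new RNA at every labelling time. Their median NTR was 0.51% ± 0.184 after 15 min, 2.36% ± 0.251 after 30 min, 5.08% ± 0.131 after 60 min, 7.31% ± 0.548 after 90 min and 10.2% ± 0.318 after 120 min (SD over the medians of n = 2 libraries). The median over all 9065 genes was 1.01% ± 0.474, 5.21% ± 0.120, 15.5% ± 0.410, 24.4% ± 1.40 and 35.4% ± 0.523 at the same times. In each of the 6 libraries of 60, 90 and 120 min, the NTR of 78 of the 78 subunit genes was below that library's all-gene median. After 120 min 68 of 78 were in the lowest 10% of all genes in replicate A and 67 in replicate B. The authors' 95% posterior quantile was below the all-gene median for 78 of 78 genes in both 90 min and both 120 min libraries. Across genes the NTR after 120 min rose with gene length (Spearman rho 0.35 over all genes and 0.31 over the subunit genes). With mean count the rho was -0.26 and 0.05. The part of length in the low NTR was not tested.

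After 15 min the genes could hardly be ordered. Of the 78, 14 were at an NTR of 0 in replicate A and 20 in replicate B. Over all genes, 11.4 and 20.5% were at 0 in these libraries. The 90% posterior interval of the subunit genes was a median of 1.74 and 1.32 percentage points wide. From 30 min the NTR followed the labelling time. The group mean was higher at the later time for 74 of 78 genes from 15 to 30 min, for 76 from 30 to 60 min, for 76 from 60 to 90 min and for 74 from 90 to 120 min. It was higher at every step for 67 of 78, and for 78 of 78 both 120 min libraries were above both 30 min libraries.

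**Figure D1:**
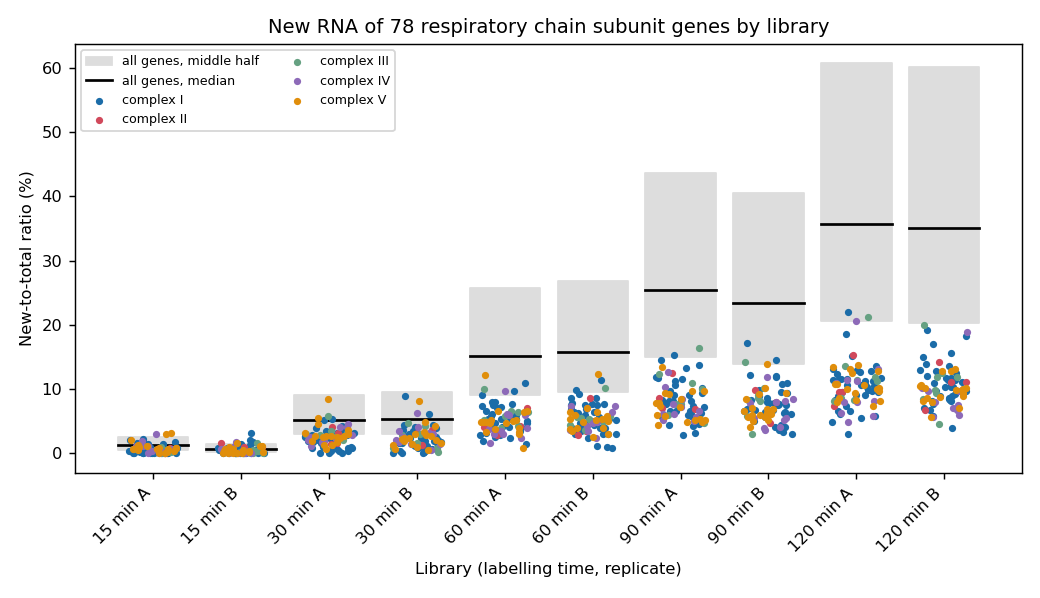
New-to-total ratio (percent) of 78 subunit genes in each labelled library, coloured by complex, with the median (line) and the middle 50% (grey) of 9065 genes. From 60 min on all 78 subunit genes lie below the all-gene median, and after 120 min their median is 10.2% against 35.4%.

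An apparent half-life was computed from each NTR, taking loss as exponential and the level as constant. The median over the subunit genes was 788 ± 23.9 min after 30 min of labelling, 789 ± 26.1 min at 60, 824 ± 64.2 min at 90 and 773 ± 25.5 min at 120 (12.9 ± 0.425 h, n = 2). These medians leave out genes with an NTR of 1% or less. That kept 65 and 61 of the 78 genes in the 30 min libraries, and 20 and 12 in the 15 min libraries, where the median was 663 ± 7.57 min. Computed from the median NTR of all 78 genes instead, the value after 15 min was 2175 ± 786 min. It was 877 ± 94.5 min after 30 min, 798 ± 21.1 at 60, 824 ± 64.1 at 90 and 773 ± 25.5 at 120. The 15 min value thus depends on which genes are kept. The all-gene median went from 368 ± 11.4 min after 30 min of labelling to 247 ± 7.22, 224 ± 14.9 and 198 ± 5.41 min at the later times, and from 389 ± 9.23 to 190.5 ± 3.53 min when computed from the median NTR. The difference between these courses was not tested.

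Complex IV had the lowest median NTR of the complexes after 120 min, 8.03% ± 0.0566, and complex III the highest, 11.1% ± 0.354. Complex I was at 10.5% ± 0.141, complex II at 10.3% ± 1.10 and complex V at 9.99% ± 0.159 (n = 2 libraries each). With Ndufa4 in complex IV, complex I was at 10.6% and complex IV at 8.04%. Complex II did not differ from I, III or V beyond its spread, and in replicate B it was above complex III (11.07 against 10.86%). Of the 78 genes, 54 had a mean NTR between 8 and 14% after 120 min, 16 were below 8% and 8 above 14%. Those above were Ndufs1, Ndufs3, Ndufa8, Ndufb7, Ndufv3, Sdhd, Uqcrfs1 and Cox7a2l. They were named after their values were seen, apart from those in the core or at the extreme of a complex.

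**Figure D2:**
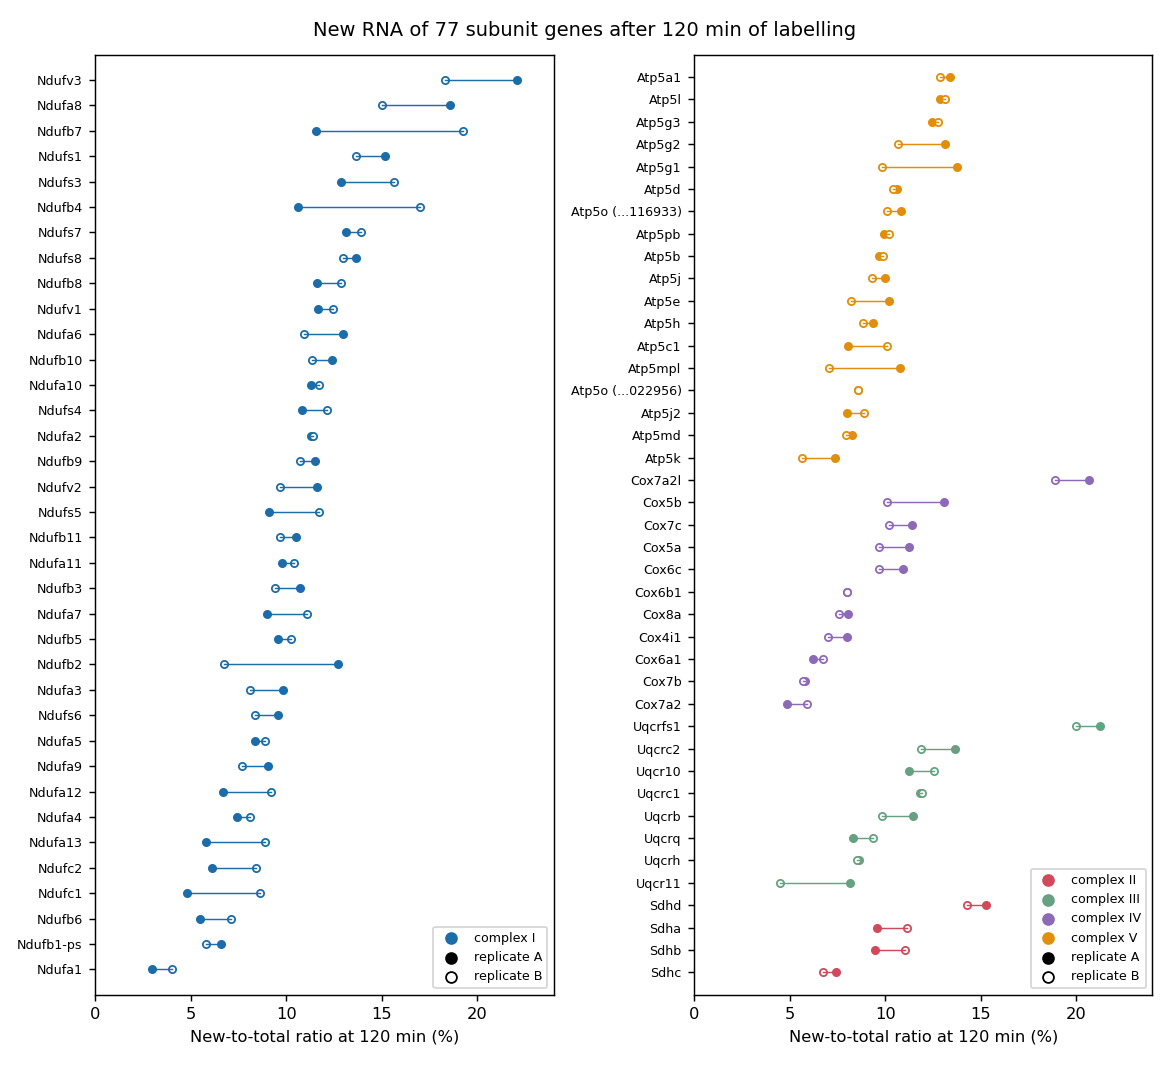
New-to-total ratio (percent) of 77 of the 78 subunit genes after 120 min of labelling in replicate A (filled) and replicate B (open), grouped by complex and sorted by mean. Ndufa1 is lowest at 3.48%, and Uqcrfs1, Ndufv3 and Cox7a2l, at 19.8 to 20.6%, are highest.

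Complex I, the NADH dehydrogenase, held both the lowest gene of all and the one second from the top. Ndufa1 (chrX:37187588-37191163, minus strand), a small membrane subunit needed for assembly, had an NTR of 2.96 and 3.99% in the 120 min libraries. It was at 5.88 and 3.61% after 90 min, 4.79 and 0.99% after 60 min, 0.30 and 0.74% after 30 min, and 2.22 and 0.85% after 15 min, so that the values of 60, 90 and 120 min overlap. Ndufv3 (chr17:31520115-31531331, plus strand), an accessory subunit of the NADH-binding part, was at 22.1 and 18.3% after 120 min. Its values were 13.2 and 17.2% after 90 min, 10.98 and 11.4% after 60 min, 5.32 and 8.99% after 30 min, and 2.05 and 0.88% after 15 min. Each group lay above the one before it without overlap.

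The core subunits of complex I named here lay between these. After 120 min Ndufs1 was at 14.4% ± 1.08, Ndufs3 at 14.3% ± 1.97, Ndufs7 at 13.5% ± 0.544 and Ndufs8 at 13.3% ± 0.488. Ndufv1, the NADH-binding subunit, was at 12.1% ± 0.559 and Ndufv2 at 10.6% ± 1.38 (n = 2). Ndufs1, Ndufs3, Ndufs7 and Ndufs8 did not differ beyond their spread. Ndufb1-ps, at 6.19% ± 0.573, is listed in GENCODE M21 as a long non-coding RNA from a bidirectional promoter.

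Complex II, succinate dehydrogenase, is the complex with no mitochondrially encoded subunit. Its flavoprotein Sdha, at 9.56 and 11.1% after 120 min, and its iron-sulfur protein Sdhb, at 9.49 and 11.03%, had nearly the same values. The membrane anchors lay on either side, Sdhc at 7.43 and 6.72% and Sdhd at 15.3 and 14.3%, with no overlap between these anchors.

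In complex III, the cytochrome bc1 complex, Uqcrfs1 (chr13:30540308-30545362, minus strand) encodes the Rieske iron-sulfur protein, which is inserted late in assembly. Its NTR was 0.70 and 0.00% after 15 min, 3.44 and 4.22% after 30 min, 10.1 and 10.2% after 60 min, 16.5 and 14.3% after 90 min, and 21.3 and 20.0% after 120 min. That is the highest mean of all 78 genes, 20.6% ± 0.884, with an apparent half-life of 6.01 ± 0.290 h. The groups did not overlap in time order. The core proteins Uqcrc1 and Uqcrc2 were at 11.9% ± 0.0636 and 12.8% ± 1.23. Uqcr11, a small accessory subunit, was lowest, but its libraries were apart at 8.16 and 4.50%.

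In complex IV, cytochrome c oxidase, 10 of the 11 genes that reached 100 reads lay between 5.38 and 11.6% after 120 min, and Cox7a2l lay above them at 19.8% ± 1.26. Cox7a2 was lowest at 5.38% ± 0.735 (apparent half-life 25.3 ± 3.56 h), next to Cox7b at 5.75% ± 0.0849 and Cox6a1 at 6.50% ± 0.382. Cox4i1, which has a role in regulation by ATP, was at 7.51% ± 0.672, and Cox8a at 7.82% ± 0.361. Cox5a and Cox5b were at 10.5% ± 1.10 and 11.6% ± 2.13. In complex V the range was from Atp5k at 6.51% ± 1.20 to Atp5a1 at 13.1% ± 0.368. Atp5b, the catalytic beta subunit, was at 9.67 and 9.89%. The other subunits of the central catalytic part were Atp5d at 10.5% ± 0.149, Atp5e at 9.20% ± 1.42 and Atp5c1 at 9.08% ± 1.43.

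On the scale of the NTR, the paralogue comparison found a difference for 1 of 4 pairs. Cox7a2l had an NTR of 1.10 and 1.70% after 15 min, 2.86 and 3.13% after 30 min, 9.75 and 7.35% after 60 min, 12.7 and 11.96% after 90 min, and 20.7 and 18.9% after 120 min. Cox7a2 had 0.70 and 0.00%, 2.06 and 1.48%, 1.55 and 5.01%, 5.21 and 3.98%, and 4.86 and 5.90%. Cox7a2l was above Cox7a2 in 10 of 10 libraries, by a mean of 5.93 percentage points ± 5.42 (SD over libraries of all durations) and by 14.4 ± 1.99 points after 120 min. The two-sided exact permutation test over sign flips gave p = 0.001953, the smallest it can give with 10 libraries (Benjamini-Hochberg adjusted over 4 pairs, 0.00781). With 1 replicate letter the difference was 5.33 or 6.53 points, but those libraries are too few to pass 0.05 in this test.

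The 3 genes of ATP synthase subunit c, whose shared coding ends are shown above, differed less in NTR than Cox7a2 and Cox7a2l. Over 10 libraries Atp5g3 was above Atp5g1 by 1.46 ± 1.57 points (8 of 10 libraries, exact permutation adjusted p = 0.0586) and above Atp5g2 by 0.527 ± 1.09 points (6 of 10, exact permutation adjusted p = 0.164). Atp5g2 was above Atp5g1 by 0.933 ± 1.40 points (6 of 10, exact permutation adjusted p = 0.0859). These differences in NTR did not pass the threshold of 0.05, which does not show that the genes are alike. On the scale of -ln(1-NTR) per hour, Atp5g3 minus Atp5g1 did pass it, as given in the last section. Per length, Atp5g3 was the most abundant at 400.6 CPM per kb, against 96.8 for Atp5g2 and 26.0 for Atp5g1, using the deposited gene lengths. Not divided by length, the means were 345 CPM for Atp5g3, 122 for Atp5g1 and 72.9 for Atp5g2. The order of Atp5g1 and Atp5g2 thus depends on the length used.

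Levels per length spanned a wide range among the subunit genes. Atp5b (chr10:128083273-128090391, plus strand) was highest at 869 CPM per kb, followed by Cox8a at 439, Atp5g3 at 400.6 and Cox4i1 at 361. At the low end was Ndufb2 at 5.98 CPM per kb. For these genes the deposited length equals that of the longest M21 transcript, and the order depends on it: Ndufb7 was at 11.2 and Atp5l at 12.01 CPM per kb on that length, but at 79.7 and 139 on the shorter M21 transcript used here for the coding sequence. On that transcript Atp5g3 was at 478 CPM per kb, above Cox8a. Cox7a1 and Cox6a2, the isoforms of heart and skeletal muscle, Cox4i2, an isoform of lung and of low oxygen, and Ndufa4l2, a hypoxia-induced relative of Ndufa4, were not tested. Their means were 0.167, 0.417, 0.0833 and 0.417 reads per library, at or near 0. Cox5b-ps, a copy of Cox5b with a mean of 68.1 reads, was tested but left out of the NTR values. Reads of such copies can be divided between genes, as can those of Atp5o, which has 2 gene IDs with overlapping spans on chromosome 16. Of the 83 genes, 28 overlap another gene of the table, 7 of them on the same strand, and whether counting used the strand is not stated in the sources used here.

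Among the labelled libraries, the summed share of reads in all 83 genes was lowest after 15 and 30 min and highest after 120 min. It was 0.902 and 0.911% after 15 min, 0.900 and 0.900% after 30 min, 0.920 and 0.912% after 60 min, 0.927 and 0.943% after 90 min, and 0.99 and 1.02% after 120 min. From 30 min on each group lay above the one before it. The no4sU libraries were at 1.02% in replicate A and 0.892% in replicate B, a gap nearly as wide as the range of all 12 libraries. The 95% exact (Clopper-Pearson) intervals, which cover counting error only, were 1.01 to 1.02% and 0.887 to 0.897%. A share of reads is relative, so in these bulk libraries fewer cells of a kind and less RNA per cell cannot be told apart, nor can more subunit RNA and less of other RNA.

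**Figure D3:**
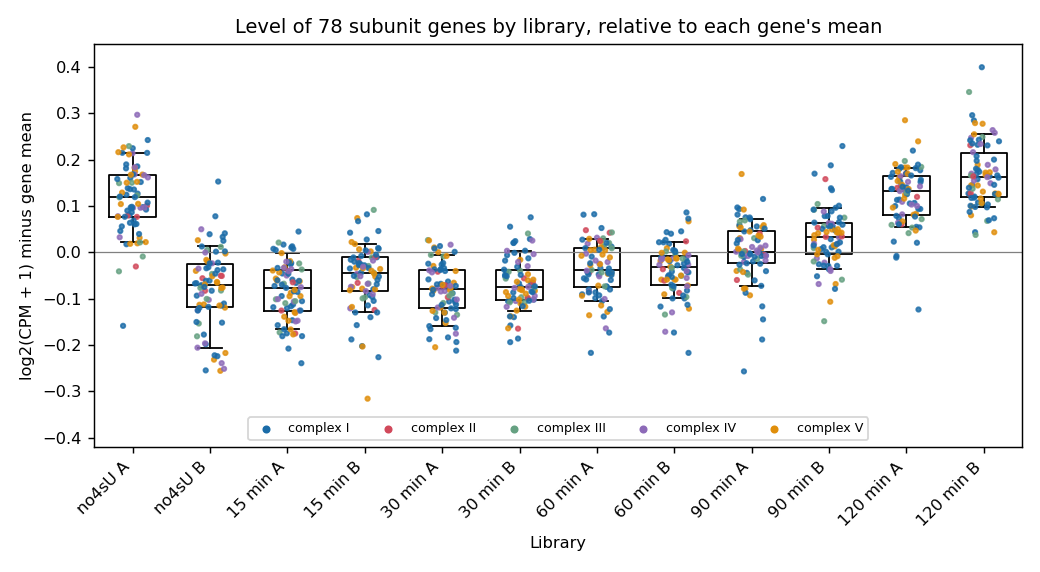
Deviation of log2(CPM + 1) from each gene's mean over 12 libraries, for 78 subunit genes (points, coloured by complex); boxes show the median and quartiles, whiskers the 10th and 90th percentiles. No4sU replicate A (median 0.12) lies with the 120 min libraries (0.13 and 0.16) and no4sU replicate B (-0.07) with the 15 min libraries (-0.08 and -0.04).

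Dividing the level by NTR separates RNA made before and during labelling. The new part of the summed CPM was 53.6 ± 18.1 after 15 min, 219 ± 9.53 after 30 min, 477 ± 19.0 after 60 min, 738 ± 30.4 after 90 min and 1075 ± 2.65 after 120 min. That is 0.600, 2.46, 5.22, 7.76 and 10.4% of the genes' sum, against 1.27, 5.74, 14.6, 21.7 and 29.1% over all genes. The older part was 8900 ± 122 CPM after 15 min, 8671 ± 33.9 after 30 min, 8663 ± 99.1 after 60 min, 8777 ± 122 after 90 min and 9238 ± 150 after 120 min. As a share of the library, this older part was larger after 120 min than after 15 min, with no overlap between the libraries. CPM is relative to all RNA in a library.

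**Figure D4:**
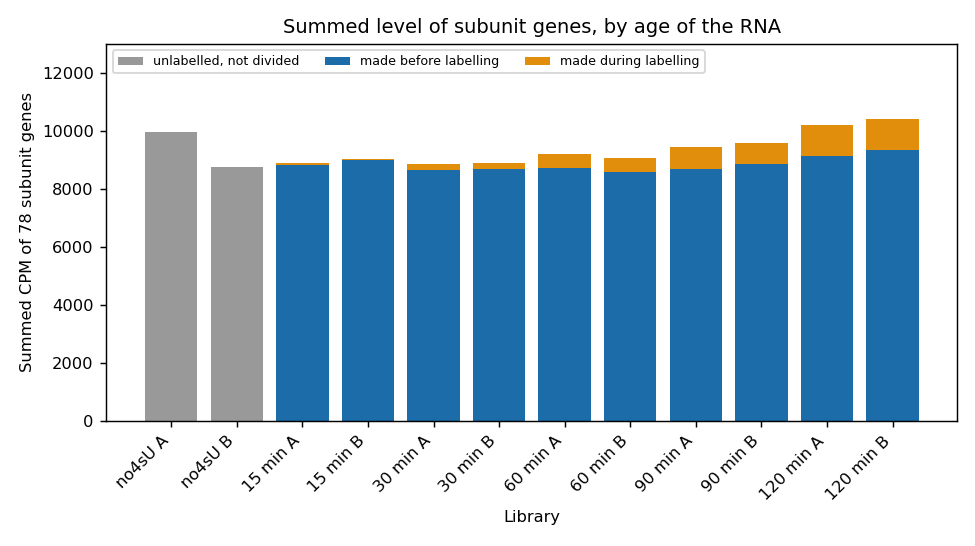
Summed CPM of 78 subunit genes per library, divided by NTR into RNA made before (blue) and during (orange) labelling; unlabelled libraries are grey. The new part grows to 1075 CPM after 120 min, while the older part stays between 8593 and 9343 CPM.

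Reads of most subunit genes rose with labelling time over the 10 labelled libraries. In edgeR's quasi-likelihood test with Benjamini-Hochberg adjustment, 65 of the 79 tested subunit genes had a slope above 0 at an adjusted p below 0.05 and 0 had one below 0. Over all 11526 genes tested, 18.3% were called higher and 19.5% lower. The slope estimate was above 0 for 79 of 79 subunit genes (77 with library size alone as the scaling, where Ndufa6 and Uqcrb were below 0, and 70 with the length offset described below), with a median of 0.11 on the log2 scale per hour, against 0.00 for all genes. By complex, 27 of 37 rose in complex I, 4 of 4 in complex II, 6 of 8 in complex III, 12 of 12 in complex IV and 16 of 18 in complex V. The 14 not called include the core subunits Ndufs1 (0.06 ± 0.0242 SE) and Uqcrc2, as well as Ndufa6, whose slope was the lowest (0.02 ± 0.0425 SE).

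Ndufa1 had the largest slope among the 78 genes, 0.27 ± 0.0473 SE per hour (adjusted p = 1.113e-05). Its level was 23.9 and 24.1 CPM after 15 min, 26.2 and 27.7 after 30 min, 25.1 and 30.2 after 60 min, 30.1 and 27.8 after 90 min and 32.5 and 37.8 after 120 min. The 120 min libraries were above all others, and the middle times overlapped. With the length offset the slope of Ndufa1 was 0.15 ± 0.0436 SE, and without the 120 min libraries it lost its call (edgeR, adjusted p = 0.0734). The next were an Atp5o gene (ENSMUSG00000116933) at 0.25 ± 0.0485, Ndufs5 at 0.22 ± 0.0509 and Ndufb6 at 0.22 ± 0.0412 (SE), and Cox5b-ps, with few reads, was at 0.29 ± 0.0899. With the length offset these were 0.14, 0.12, 0.12 and 0.15, and Ndufs5 and Cox5b-ps lost their calls. Without the 120 min libraries Ndufb6 alone of these 4 kept its call. Atp5b, the most abundant, went from 1592 and 1610 CPM after 15 min through 1588 and 1596 after 30 min, 1667 and 1606 after 60 min and 1715 and 1714 after 90 min to 1839 and 1837 after 120 min. Its slope was 0.11 ± 0.0171 SE.

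The slope calls rest in large part on the 120 min libraries, and the slope goes with gene length. A fit without the 120 min libraries has fewer libraries and a shorter range of times. Its estimates were above 0 for 72 of 79 subunit genes, with a median of 0.06 per hour, against 0.00 for all genes. Without those libraries 12 subunit genes were called, all higher (background 5.95% higher and 8.48% lower), among them Ndufa13, Ndufb6, Sdhb, Atp5j, Ndufb10, Uqcrh, Atp5c1, Cox4i1, Atp5a1, Atp5g3 and Atp5b. With an offset that removes the trend of each library with gene length, 32 were called higher (background 19.3%) and Uqcrb was called lower (background 15.2%), at -0.08 ± 0.0328 SE per hour. The median slope with this offset was 0.06 for the subunit genes, against 0.01 for all genes. With library size alone as the scaling, 45 were called, all higher, against a background of 10.2% higher and 26.3% lower. The part of length in the slope was not tested further.

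**Figure D5:**
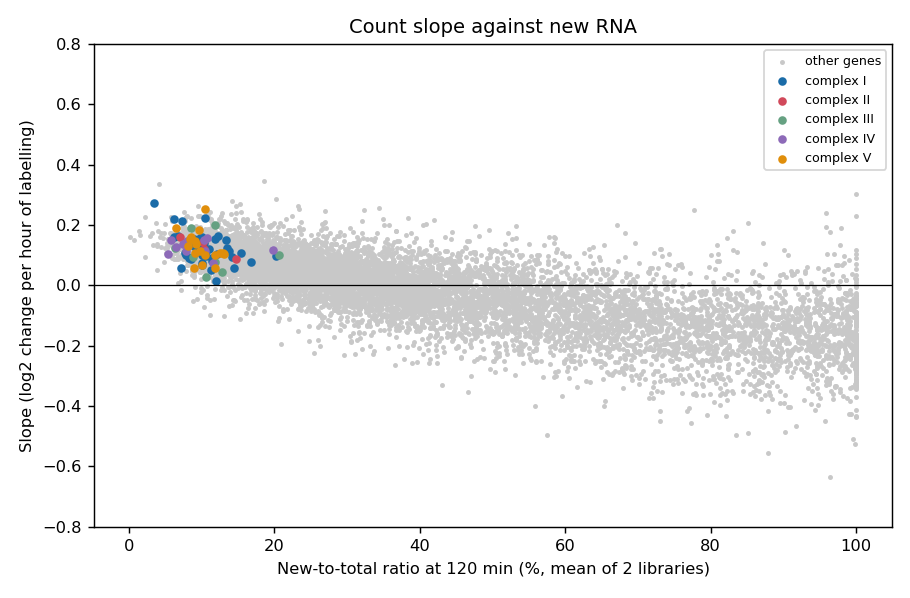
Slope of the read count (log2 change per hour of labelling, edgeR) against the new-to-total ratio after 120 min (percent) for 9065 genes, with 78 subunit genes coloured by complex and a line at 0. With TMM scaling all 78 subunit genes have slopes above 0 (2 turn with library size alone, 9 of the 79 tested with the length offset), and they lie at the low-NTR end of a cloud that falls to the right (Spearman rho -0.78 across genes).

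Across genes the slope fell as the NTR after 120 min rose, with Spearman's rho -0.78 over 9065 genes and -0.40 over the 78 subunit genes. Both measures come from the same libraries, and genes are not independent replicates. Among the 2216 other genes whose NTR after 120 min was no higher than 20.6%, that of the highest subunit gene, 62.2% were called higher and 2 genes lower, with a median slope of 0.10. The rho of slope with gene length was -0.39 over all genes and -0.18 over the subunit genes.

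In the direct contrast of 120 with 15 min, 39 of the 79 subunit genes were higher and 0 lower (edgeR), against 7.93% of all 11564 genes higher and 11.3% lower. The median change was 0.21 on the log2 scale. Ndufa1 (0.56 ± 0.102 SE, adjusted p = 0.00111), Atp5k (0.41 ± 0.0758, adjusted p = 0.00113), Uqcr10 (0.38 ± 0.0803, adjusted p = 0.00301) and Ndufs5 (0.38 ± 0.108, adjusted p = 0.0189) were among the largest in edgeR's test, as was the Atp5o gene ENSMUSG00000116933 at 0.54 ± 0.129. With the length offset 19 were called higher, against 11.5% of genes higher and 10% lower. Leaving out 1 library lowered the count to 19 without 120 min replicate A (3.13% of all genes higher), 4 without 120 min replicate B (1.51%), 5 without 15 min replicate A (1.18%) and 13 without 15 min replicate B (2.87%). Ndufa1 and Atp5k were called in all 11 refits, but with the length offset their changes were 0.33 and 0.21. Ndufs5 lost its call in 5 refits, and Uqcr10 and the Atp5o gene in 2 each.

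Against the unlabelled cells, few subunit genes were called, and the count changed with the libraries kept. After 120 min 4 of 79 subunit genes were called higher by edgeR and 0 lower, 5.06% against a background of 5.43% higher, a share near that of all genes, and 8.78% of all genes were lower. They were Uqcr10 (0.25 ± 0.0790 SE), Cox7b (0.21 ± 0.0606), Sdha (0.19 ± 0.0562) and Atp5b (0.19 ± 0.0492). Sdha was at 125 and 124 CPM in no4sU replicates A and B and at 141 and 144 CPM after 120 min. Without no4sU replicate A, 53 were called higher, against a background of 14.2% higher and 16% lower, and the median change was 0.23. Without no4sU replicate B, 4 were called higher and Cox5b was called lower, against 8.84% higher and 7.41% lower, with a median of 0.02. With no filter on low counts 13 were called higher, against 4.94% of genes higher and 6.67% lower. With 120 min replicate A or B left out, 1 or 0 were called higher, against 1.06 and 1.15% of all genes. Uqcr10 lost its call in 7 of the refits, and Cox7b, Sdha and Atp5b in 4 each.

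After 15 min edgeR called 0 of the 79 subunit genes against no4sU, and 0% of all genes. DESeq2 also called 0. In edgeR 13 subunit genes had an unadjusted p below 0.05, as did 618 of all 11564 genes. The estimate was below 0 for 72 of 79, with a median of -0.09 on the log2 scale, against 0.002 for all genes. Without no4sU replicate A 2 were called higher (background 0.299% higher and 0.162% lower), 40 of 79 estimates were above 0 and the median was 0.00, and without no4sU replicate B 32 were called lower (background 3.76% lower and 7.67% higher), 2 of 79 estimates were above 0 and the median was -0.20.

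Other genes of the respiratory system had higher median NTRs. The medians of these lists are over each gene's mean of the 120 min libraries. By that measure the subunit genes were at 10.18%. Of the proteins named outside the symbol rule, Cycs, Cyc1 and Atpif1 (cytochromes c and c1 and the ATP synthase inhibitor) rose with labelling time and Ndufab1 was at 0.07 ± 0.0363 SE per hour, and their median NTR after 120 min was 14.2%. Of 13 tricarboxylic acid cycle enzymes, 8 rose and 0 fell, with a median NTR of 14.2%. Mdh2, malate dehydrogenase, was at 12.5% ± 1.03, and its slope was 0.13 ± 0.0191 SE.

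Assembly factors, which help to build the complexes without being part of them, had a median NTR of 29.7% after 120 min over the 35 with at least 100 reads. Of 45 tested, 4 rose (Uqcc2, Uqcc3, Cox16 and Atpaf2) and 6 fell (Cox11, Sco1, Ttc19, Cox15, Sco2 and Ndufaf4). Cox11, a copper chaperone of complex IV, had an NTR of 82.4% ± 1.51 and a slope of -0.26 ± 0.0667 SE. Uqcc2, a factor of complex III, had 8.61% ± 2.03 and 0.17 ± 0.0264 SE.

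Transcriptional regulators of the system had the highest NTR of the lists, a median of 54.5%. Of 12 tested, 0 rose and 5 fell with labelling time: Pprc1, Ppargc1a, Yy1, Gabpb1 and Nrf1. Pprc1, a PGC-1-related coactivator, had an NTR of 96.4% ± 0.559 and a slope of -0.20 ± 0.0213 SE, and Nrf1, the factor whose motif was searched above, had 73.0% ± 4.16 and -0.11 ± 0.0384 SE. The 18.3% of all genes called higher and 19.5% called lower are the background for these lists too.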

How the data were processed

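The data are 12 libraries of SLAM-seq in 6 groups of 2, grouped by the sample titles, with 0 columns of other samples. Per the submitters' processing notes, cutadapt, Bowtie2 2.3.0 and STAR 2.7.10b were used. No source used here names the genome build, the annotation, the counting tool or the tool that gave the NTR. The authors deposited estimated counts per gene and library, not scaled between libraries. Fractional values (35.1% of those of the subunit genes, at a tolerance of 1e-06) were rounded for the tests. The deposited NTR is a fraction per gene and library, with posterior maximum (used here), mean and quantiles per the file headers; values are shown as percent. The deposited alpha and beta columns, each a score, were not used. 

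The tests of counts used edgeR 4.0.16 (R 4.3.3) over all genes (filterByExpr, TMM factors 0.970 to 1.02, quasi-likelihood, Benjamini-Hochberg adjusted p below 0.05), with all 12 libraries in the group contrasts and the 10 labelled ones for the slope. CPM uses the same factors. The NTR was described for genes with a mean of at least 100 reads. The apparent half-life is ln 2 times the labelling time over -ln(1-NTR), for NTR between 0.01 and 0.99. Pairs of groups of 2 libraries cannot give an exact two-sided permutation p below 0.333, so NTR medians have no test. The scripts were tested on simulated data.

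Alternatives were DESeq2 1.42.0, other scalings and filters, a gene length offset (loess, span 0.5; for the group contrasts chosen after seeing the data), the replicate block and leaving out libraries. Genes were matched by ID to GENCODE M21 (GRCm38), which held 17376 of 17419 IDs and all 83 subunit genes. The deposited length equalled the longest M21 transcript for 99.2% of the genes with a transcript. Named genes are core subunits, paralogues, the extremes of each complex and up to 5 members called with the largest change per contrast. The members and lists were chosen with earlier results of these data known. The NRF1 core was chosen after a longer form of the motif had been searched. The values of 1 subunit gene are not reported here, though counts and medians include it. Lists are described by counts, with no set test.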

Additional observations from a re-analysis of the deposited data

How the results depend on the processing

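The slope count of 65 subunit genes was 12 without the 120 min libraries and 33 (32 higher, 1 lower) with the gene length offset. Leaving out 1 library gave 45 to 67, with 1597 to 2123 of all genes tested called higher. Library size alone, with no TMM, gave 45. The 39 for 120 against 15 min were 20 with library size alone and 19 with the offset. Of all 11564 genes, 426 were called higher with library size alone and 1331 with the offset. With 1 library left out, the median change was between 0.18 and 0.24. The 4 for 120 min against no4sU were 13 with no filter on low counts, 0 with library size alone, 8 with DESeq2 size factors in edgeR, 0 with only the libraries of both groups and 9 with the offset, and 0 to 53 with 1 library left out. The 0 for 15 min against no4sU were 0 to 32 with 1 library left out. The Cox7a2l minus Cox7a2 difference was 9.13 points with 60, 90 and 120 min only (exact permutation adjusted p = 0.125). Cox7a2l was higher in all of these libraries, so the unadjusted p was the smallest they can give. That p therefore cannot show a weaker difference. With 1 replicate letter the difference was 5.33 to 6.53 points, where the smallest p cannot pass 0.05 after adjustment. Atp5g3 minus Atp5g1 passed the threshold on the scale of -ln(1-NTR) per hour (0.0208, exact permutation adjusted p = 0.0273). Single genes named from the fits kept direction in 189 of 189 refits and lost the call in 36. They were chosen for the largest changes in these same data, so their direction could hardly turn. Over all 79 subunit genes tested, 9 slopes were below 0 with the length offset and 7 without the 120 min libraries. The median NTR and half-life at 120 min moved by less than their SD under every alternative run. Samples of different groups share only a letter: across 15 pairs of groups the same-letter correlation was -0.126 to 0.148, above 0.1 in 3. With the replicate block the counts were 65, 39, 4 and 0, as without it. Each SD rests on 2 libraries, and the cause of these changes was not tested.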
